A study of Mus musculus with 57 samples.

Results

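Tumour necrosis factor, encoded by Tnf, was followed together with its receptors Tnfrsf1a and Tnfrsf1b, the adaptors Traf1 and Traf2, the brakes Tnfaip3 and Tnip1, and the TNF-induced gene Tnfaip2. The 8 genes were taken by symbol from 2 tables of read counts per gene, which list 50565 and 53278 genes. All 8 were present in both tables and passed the filter on low counts, with 31709 and 16088 genes tested. RNA had been sequenced from CD11b-positive brain cells, annotated as microglia, of wild-type mice (WT) and their P2RY12-deficient littermates (KO). P2RY12 itself is a nucleotide receptor of resting microglia, and the labels do not say how the deficiency was made or in which cells. Both experiments share this contrast of genotypes. The mice of the study are described as adults, with no age given.

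The sex experiment had 4 WT and 5 KO animals of each sex. In the LPS experiment, libraries were labelled WT or KO and either LPS or ns, a term the labels do not define. Lipopolysaccharide (LPS) is a bacterial cell-wall component, given here into the peritoneum at 1 mg/kg. The time between injection and collection is not given, and neither is the sex of these animals. The labels do not say that each library of the LPS experiment came from a separate animal, so p-values there measure the spread between these samples, which may be partly technical.

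TNF is made as a membrane protein by activated myeloid cells and is released by cleavage. It binds TNFR1 (Tnfrsf1a), which is present on most cells and can signal to cell death, and TNFR2 (Tnfrsf1b), which is prominent on immune cells and microglia. Receptor-bound TRAF proteins and ubiquitin chains carry the signal to the transcription factor NF-kappaB, whose targets include Tnf itself and the ubiquitin editor A20 (Tnfaip3), which with its partner ABIN1 (Tnip1) switches the signal off.

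In the annotation of the count table for the sex experiment (GRCm39), Tnf lies at chr17:35418343-35420983, Tnfrsf1b at chr4:144938938-144973453, Tnfaip3 at chr10:18876658-18891158, Traf2 at chr2:25407994-25436952 and Tnip1 at chr11:54801613-54853766, all on the minus strand. Tnfrsf1a lies at chr6:125326686-125339446 and Tnfaip2 at chr12:111408898-111421452, on the plus strand. These are whole gene spans, introns included.

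The promoters of 4 of these genes are printed because the genes rose with LPS in KO cells and because they differ in the NF-kappaB consensus, called the kappaB site. Each line gives the 250 bases before the start of a gene from RefSeq on build GRCm38.p6, read 5′ to 3′ on the strand of the gene, with matches to the consensus on either strand in capitals.
Tnf, chr17:35202008-35202257, minus strand: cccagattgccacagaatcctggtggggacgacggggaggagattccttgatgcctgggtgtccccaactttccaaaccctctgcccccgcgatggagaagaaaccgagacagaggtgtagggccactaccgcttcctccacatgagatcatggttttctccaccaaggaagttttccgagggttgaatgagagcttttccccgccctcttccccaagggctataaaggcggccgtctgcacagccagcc
Tnfaip3, chr10:19015411-19015660, minus strand: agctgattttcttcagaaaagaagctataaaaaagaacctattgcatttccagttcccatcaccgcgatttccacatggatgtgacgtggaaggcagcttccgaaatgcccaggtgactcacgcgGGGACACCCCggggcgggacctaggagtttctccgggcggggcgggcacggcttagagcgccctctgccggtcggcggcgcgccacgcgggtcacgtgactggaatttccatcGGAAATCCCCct
Tnip1, chr11:54962941-54963190, minus strand: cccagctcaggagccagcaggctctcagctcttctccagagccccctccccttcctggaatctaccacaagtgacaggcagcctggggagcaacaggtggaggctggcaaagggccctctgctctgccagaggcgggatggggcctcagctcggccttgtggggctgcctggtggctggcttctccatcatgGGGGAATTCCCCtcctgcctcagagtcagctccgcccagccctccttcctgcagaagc
Tnfaip2, chr12:111442411-111442660, plus strand: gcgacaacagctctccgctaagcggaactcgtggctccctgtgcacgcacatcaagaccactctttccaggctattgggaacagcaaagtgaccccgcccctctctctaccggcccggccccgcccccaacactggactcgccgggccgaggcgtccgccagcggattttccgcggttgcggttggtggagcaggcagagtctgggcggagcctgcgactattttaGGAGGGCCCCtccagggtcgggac
Tnip1 held 3 overlapping matches that began 58, 57 and 56 bases before its start. Tnfaip3 held matches 125 and 12 bases before this start, and its other RefSeq start, with the window chr10:19011964-19012213, held 0. Tnfaip2 held 1 match, 24 bases before its start. The letters of the consensus were not found in the windows of Tnf, Tnfrsf1a, Tnfrsf1b, Traf1 and Traf2. All 8 genes matched by symbol, with 9 windows in all, and 3 of the 9 held the consensus. Of all 32851 windows of this length in the table, 2382 held it, or 7.25%. A match describes letters and not binding, and the lack of one says nothing about the factor.

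Totals ran from 58.5 to 318.5 M counts per animal in the sex experiment (M standing for mega) and from 15.9 to 168.4 M per library in the LPS experiment. P2ry12 itself was at 3007 to 5928 CPM, the counts scaled to a common library total, in the 8 WT animals of the sex experiment and at 309.3 to 526.4 CPM in the 10 KO animals. In the LPS experiment it was at 3516 to 5406 CPM in the WT ns samples of the fit and at 585.2 to 1243 CPM in KO ns, and at 400.3 to 1063 CPM in WT LPS and 84.2 to 154.1 CPM in KO LPS. The 9 microglial markers with a row in the table of the sex experiment summed to 29712 CPM or more in each animal except male WT 5 and female WT 2, at 22572 and 23106 CPM. The neutrophil marker sums of these 2 were 49753 and 29980 CPM, against 1472 to 8547 CPM in the other 16 animals. In the LPS experiment the 4 WT libraries whose labels carry the library number 2 went against their treatment labels. They are WT ns 1, WT ns 5, WT LPS 1 and WT LPS 6 in the running numbers used here, and WT ns 2 and WT LPS 2 are not among them. Saa3, an acute-phase gene, was at 1781 and 2491 CPM in WT ns 1 and WT ns 5, and at 1.59 and 3.21 CPM in WT LPS 1 and WT LPS 6. These 4 libraries are shown apart. Counts of called genes for LPS against ns, and some single values, are also given with them in their labelled groups. WT LPS 8 and WT LPS 9 differed little beyond sampling noise and were counted as 1 sample. Of the 33 libraries of this experiment, 6 held 2.69% to 8.55% mitochondrial counts, against 0.787% to 1.81% in the other 27. After these steps the fit held 6 WT ns, 6 WT LPS, 8 KO ns and 8 KO LPS samples, of which WT LPS 7, KO ns 5, KO ns 6 and KO LPS 5 had a high mitochondrial share. The library names number 8 blocks, each of 1 genotype and treatment. These were read here as 2 sets, each holding the 4 groups, and the labels do not say what the sets stand for. The sets entered the fit as a covariate, and all of the libraries of high mitochondrial share are of set 2.

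Tnf was the gene of this group that differed by the largest fold between LPS and ns samples in both genotypes. Its lowest, median and highest levels were 2.90, 4.32 and 5.81 CPM in the KO ns samples and 47.4, 76.7 and 146.2 CPM in the KO LPS samples. In WT they were 2.67, 4.56 and 13.1 CPM with ns and 52.4, 114.1 and 486.2 CPM with LPS. Every LPS sample of the fit lay above every ns sample, and WT LPS 7 and WT ns 8 were the highest of their groups. Means rose from 4.40 ± 0.915 to 82.1 ± 30.7 CPM in KO (SD, n = 8 and 8), a ratio of 18.6, and from 5.70 ± 3.88 to 168.5 ± 158.5 CPM in WT (SD, n = 6 and 6), a ratio of 29.5. The log2 fold change was 4.24 ± 0.38 in KO (SE, adjusted p = 2.87e-09, edgeR quasi-likelihood test) and 4.86 ± 0.45 in WT (adjusted p = 9.11e-09).

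The WT value was 4.26 ± 0.35 without WT LPS 7. With it left out together with the other 3 fitted libraries of high mitochondrial share, Tnf rose by 4.23 ± 0.36 in both genotypes (adjusted p = 3.20e-09 in KO and 4.66e-09 in WT), and the WT ratio of means was 18.4. WT LPS 7 also had a neutrophil marker sum of 13721 CPM, against a mean of 3326 CPM in the other 5 WT LPS samples. WT ns 8, the highest ns sample for Tnf, had a neutrophil marker sum of 17665 CPM and a Saa3 level of 64.3 CPM, where the other 5 WT ns samples of the fit had 1.52 to 4.17 CPM of Saa3. WT ns 3 had an even higher neutrophil marker sum, 18906 CPM, with Tnf at 5.06 CPM. The part of neutrophil RNA in the Tnf levels was not tested. In such bulk samples, fewer cells of a type and less RNA per cell cannot be told apart.

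The libraries shown apart had the Tnf levels of the opposite label. Tnf was at 91.5 and 94.3 CPM in WT ns 1 and WT ns 5, and at 7.92 and 6.42 CPM in WT LPS 1 and WT LPS 6. With these 4 in their labelled groups, the log2 difference of Tnf in WT was 2.12 ± 0.72 and did not pass (adjusted p = 0.130).

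**Figure D1:**
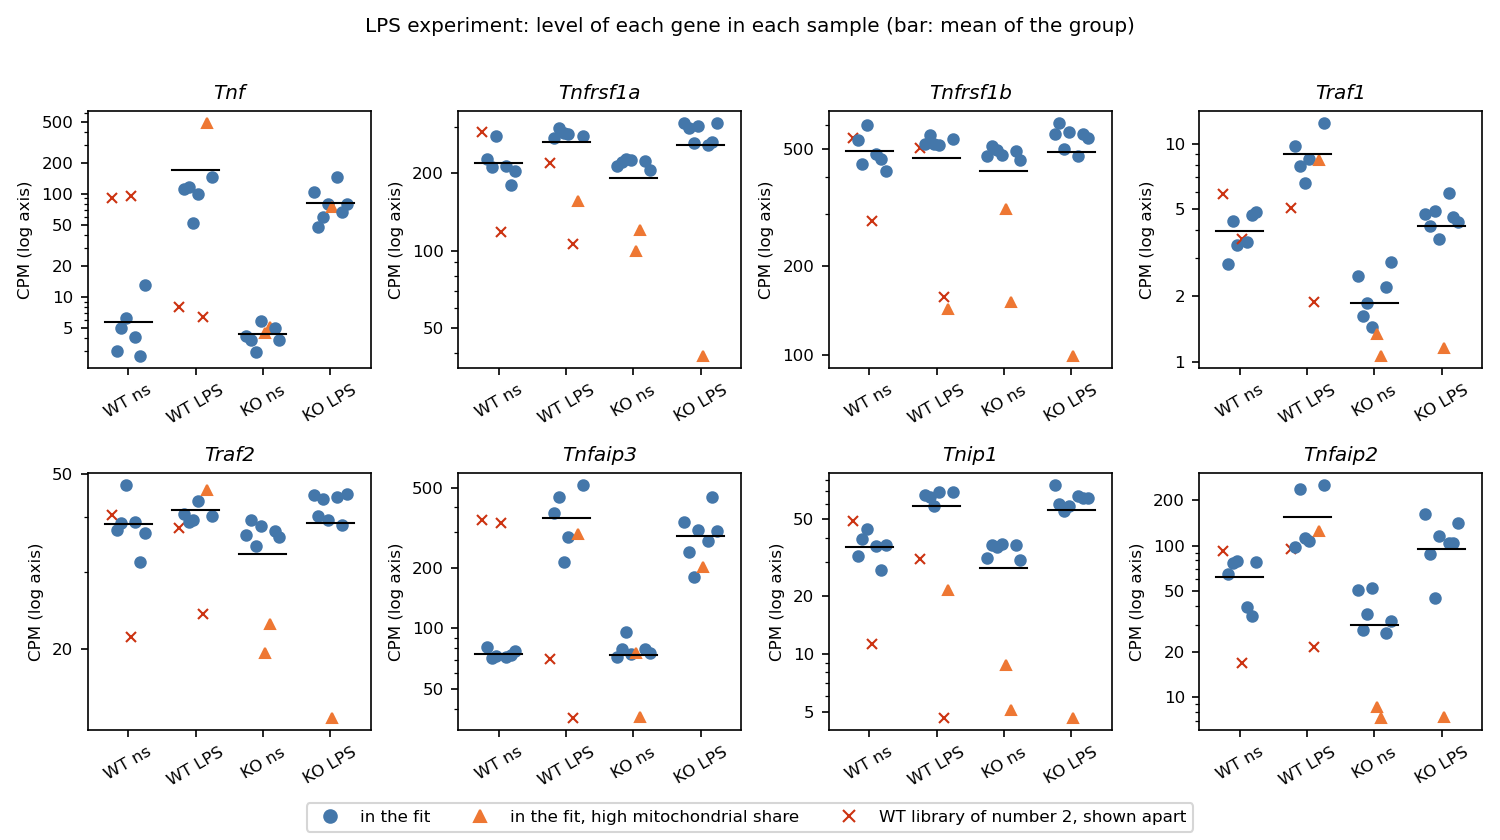
Level of each gene in CPM (log axis) in each sample of the LPS experiment, by group, with a bar at the mean of the fitted samples. Triangles mark the 4 fitted libraries with a high mitochondrial share and crosses the 4 WT libraries of number 2. The LPS samples of Tnf, at 47.4 CPM and above, do not overlap the ns samples, at 13.1 CPM and below, except for the crosses.

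Of the 8 genes, 5 were called at an adjusted p under 0.05 for LPS against ns in KO, all higher, where 28.5% of all genes tested were called in either direction and 14.4% were higher. In WT 4 were called, all higher, against 30.7% of all genes and 15.5% higher. The median log2 fold change over all genes tested was 0.01 in KO and 0.03 in WT. The calls were Tnf, Tnfaip3, Tnfaip2 and Traf1 in both genotypes, and Tnip1 in KO. With the 4 libraries of high mitochondrial share left out, 8 genes were called in KO and 6 in WT, but then 54.7% and 54.1% of all genes were called. Within library set 1 by itself 8 were called in KO and 5 in WT, and within set 2 by itself 2 in both, Tnf and Tnfaip3. Of all genes, 45.3% and 42.6% were called within set 1 and 4.36% and 3.31% within set 2. With the WT libraries of number 2 in their labelled groups, 4 were called in KO, where 22.3% of all genes were, and 0 in WT. In that WT comparison edgeR's test gave 4 of the 8 genes an unadjusted p under 0.05, and 3605 of all 15857 genes tested. It called 0% of all genes.

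The receptors differed far less between LPS and ns than their ligand. Tnfrsf1a, the receptor with a death domain, had lowest, median and highest levels of 100.1, 216.7 and 226.2 CPM in KO ns and 39.0, 280.9 and 312.5 CPM in KO LPS. In WT it had 178.8, 211.4 and 278.8 CPM with ns and 156.1, 280.6 and 299.8 CPM with LPS. Apart from 4 low libraries, KO ns 5, KO ns 6, KO LPS 5 and WT LPS 7, which are those of high mitochondrial share, KO LPS samples lay above KO ns samples, and in WT the groups overlapped through WT ns 4. The log2 difference was 0.45 ± 0.23 in KO (adjusted p = 0.155) and 0.30 ± 0.27 in WT (adjusted p = 0.414). Without those libraries Tnfrsf1a rose by 0.41 ± 0.07 in KO (adjusted p = 3.47e-05) and by 0.38 ± 0.08 in WT (adjusted p = 0.000216). With KO LPS 5 alone left out, the KO rise was 0.61 (adjusted p = 0.00109). Over the 12 other settings the adjusted p ran from 3.47e-05 to 0.755 in KO and from 0.000216 to 0.824 in WT.

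Tnfrsf1b, which lacks a death domain, had lowest, median and highest levels of 150.6, 473.9 and 508.8 CPM in KO ns and 98.8, 550.3 and 611.2 CPM in KO LPS. In WT the levels were 418.4, 470.1 and 599.6 CPM with ns and 142.9, 518.5 and 555.3 CPM with LPS. The groups overlapped in both genotypes, with and without the libraries of high mitochondrial share. The log2 difference was 0.25 ± 0.25 in KO (adjusted p = 0.508) and -0.06 ± 0.29 in WT (adjusted p = 0.906). Leaving out those libraries gave 0.19 ± 0.07 in KO, which then passed (adjusted p = 0.0289), and 0.12 ± 0.08 in WT, which did not (adjusted p = 0.215).

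Traf1, an adaptor that joins TNFR2 complexes and is itself an NF-kappaB target, was also called in both genotypes. It had lowest, median and highest levels of 1.06, 1.75 and 2.88 CPM in KO ns and 1.15, 4.49 and 5.94 CPM in KO LPS. In WT the levels were 2.81, 3.98 and 4.85 CPM with ns and 6.62, 8.46 and 12.4 CPM with LPS. Only KO LPS 5 fell among the ns samples of its genotype. The rise was 1.20 ± 0.23 on the log2 scale in KO (adjusted p = 0.000248) and 1.21 ± 0.26 in WT (adjusted p = 0.000949).

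Traf2, the adaptor that brings ubiquitin ligases to both receptors, did not pass. Its lowest, median and highest levels were 19.6, 36.1 and 39.3 CPM in KO ns, 14.0, 42.0 and 45.1 CPM in KO LPS, 31.6, 38.1 and 47.2 CPM in WT ns and 38.9, 40.4 and 45.9 CPM in WT LPS. The groups overlapped in both genotypes. The log2 difference was 0.27 ± 0.16 in KO (adjusted p = 0.223) and 0.16 ± 0.18 in WT (adjusted p = 0.550). Without the libraries of high mitochondrial share it was 0.21 ± 0.07 in KO, which passed (adjusted p = 0.0125), and 0.08 ± 0.08 in WT (adjusted p = 0.370). It also passed in KO with KO LPS 5 alone left out, at 0.38 (adjusted p = 0.0116). The adjusted p in KO ran from 0.0125 to 0.747 over the 12 other settings.

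Tnfaip3, the ubiquitin-editing enzyme A20, had the largest fold after that of Tnf. Its lowest, median and highest levels were 36.3, 75.7 and 95.6 CPM in KO ns and 181.0, 289.2 and 450.2 CPM in KO LPS. In WT the levels were 71.7, 73.3 and 81.1 CPM with ns and 214.7, 333.5 and 515.4 CPM with LPS. LPS and ns samples did not overlap in either genotype, and the 6 WT ns samples all lay between 71.7 and 81.1 CPM. Tnfaip3 rose by 2.00 ± 0.19 in KO (adjusted p = 6.50e-09) and by 2.29 ± 0.22 in WT (adjusted p = 1.39e-08). The libraries shown apart again had the levels of the opposite label, at 346.5 and 334.2 CPM in WT ns 1 and WT ns 5 and at 70.5 and 35.8 CPM in WT LPS 1 and WT LPS 6. With them in their labelled groups Tnfaip3 did not pass in WT. Its WT log2 difference ran from 0.99 to 2.36 over the 12 other settings.

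Tnip1, which encodes the A20-binding protein ABIN1, had lowest, median and highest levels of 5.08, 33.7 and 37.1 CPM in KO ns and 4.65, 62.3 and 75.5 CPM in KO LPS. In WT the levels were 27.2, 36.6 and 44.5 CPM with ns and 21.4, 66.4 and 69.7 CPM with LPS. The LPS samples lay above the ns samples except for KO LPS 5 and WT LPS 7. Tnip1 rose by 1.09 ± 0.36 in KO (adjusted p = 0.0231), and the WT difference of 0.73 ± 0.41 did not pass (adjusted p = 0.183). Without the libraries of high mitochondrial share the rise was 0.88 in each genotype, with an SE of 0.09 in KO and 0.10 in WT (adjusted p = 2.75e-08 and 7.88e-08). The KO call was lost when any 1 of KO ns 1, KO LPS 1, KO LPS 6, KO LPS 7 or KO LPS 8 was left out, with adjusted p of 0.0530 to 0.0677.

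Tnfaip2, a TNF-induced gene of myeloid and endothelial cells, had lowest, median and highest levels of 7.28, 29.9 and 52.6 CPM in KO ns and 7.43, 104.0 and 161.3 CPM in KO LPS. In WT the levels were 34.5, 71.1 and 79.5 CPM with ns and 97.7, 118.5 and 251.2 CPM with LPS. The WT groups did not overlap, and the KO groups overlapped through KO LPS 5 and KO LPS 3. Tnfaip2 rose by 1.77 ± 0.41 in KO (adjusted p = 0.00153) and by 1.41 ± 0.46 in WT (adjusted p = 0.0225). The WT call was lost when any 1 of WT ns 2, WT ns 6, WT ns 7, WT LPS 3 or the summed WT LPS 8 and 9 was left out, with adjusted p of 0.0540 to 0.0895. The summed level of 5 endothelial markers, all detected, had medians of 80.5 and 29.2 CPM in KO ns and KO LPS and 56.4 and 21.3 CPM in WT ns and WT LPS. The part of endothelial cells in the Tnfaip2 levels was not tested.

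**Figure D2:**
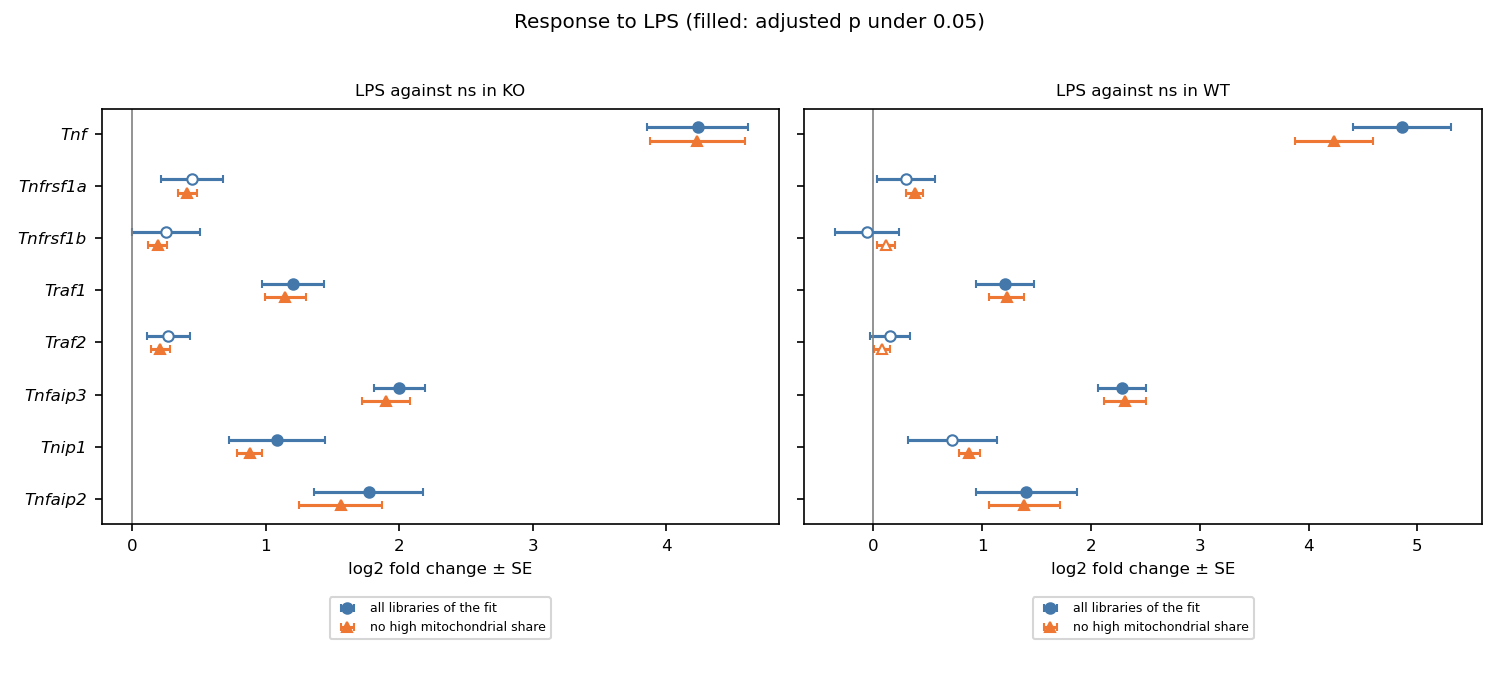
Log2 fold change between LPS and ns with its SE for each gene, in KO (left) and WT (right), in the fit of all libraries and without those of high mitochondrial share. Filled symbols passed an adjusted p of 0.05. Tnf stands at 4.24 in KO and 4.86 in WT, Tnfaip3 at 2.00 and 2.29, and the receptors and Traf2 below 0.5.

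The low values in the libraries of high mitochondrial share were not spread evenly over the 8 genes. In WT LPS 7, KO ns 5, KO ns 6 and KO LPS 5, Tnip1 was at 7.32% to 32.3% of the mean of the other samples of the same group, Tnfrsf1b at 18.2% to 64.7% and Tnfrsf1a at 13.6% to 55.1%. Tnfaip2 was at 6.86% to 77.4%, Traf1 at 24.9% to 93.6% and Tnfaip3 at 45.8% to 95.7% of that mean, so that these 6 genes were below it in all 4 libraries. Traf2 was at 33.03% to 113.4% and Tnf at 89.7% to 463.4%, and Tnf was below that mean in 1 of them, KO LPS 5. These 4 libraries had totals of 18.0 to 26.6 M counts, and the other 2 of high mitochondrial share are among those shown apart. What lowers these transcripts there was not tested. Over the 28 samples the log2 level of Tnfrsf1a had a Pearson r of 0.91 with Traf2 and 0.87 with Tnfrsf1b, while Tnf had 0.92 with Tnfaip3 and 0.18 with Tnfrsf1a. Tnfaip2 and Traf1 went with both, at 0.79 and 0.57 with Tnfrsf1a and 0.59 and 0.68 with Tnf. These samples share the LPS contrast and the libraries, so the coefficients are descriptions.

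**Figure D3:**
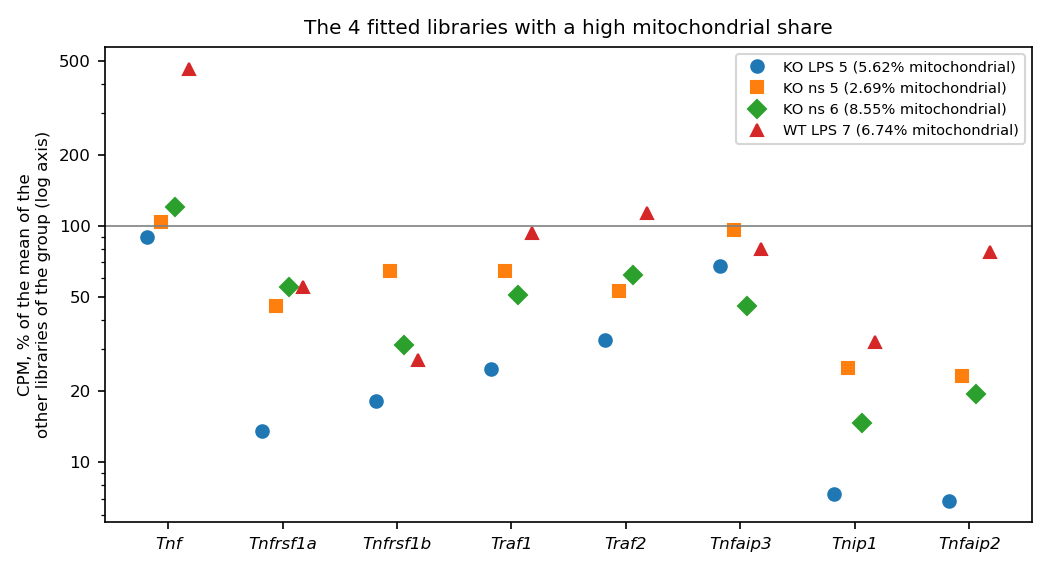
Level of each gene in the 4 fitted libraries with a high mitochondrial share, as a percentage of the mean of the other samples of the same group (log axis), with a line at 100%. Tnip1 lies between 7.32% and 32.3% in all 4, whereas Tnf reaches 463.4% in WT LPS 7.

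The genes around these 8 were described from 8 lists of the TNF pathway, 93 genes in all, of which 80 were tested. For LPS against ns in KO, 20 rose, 8 fell and 52 did not pass, with a median log2 difference of 0.20 against 0.01 over all genes. Of all genes, 28.5% were called and 14.4% rose, so the lists leaned upward in KO, which was not tested. In WT 17 rose, 10 fell and 53 did not pass, with a median of 0.03, the same as over all genes. Of all genes, 30.7% were called there and 15.5% rose. Without the libraries of high mitochondrial share 30 rose and 21 fell in KO, where 54.7% of all genes were called, and 31 rose and 21 fell in WT, where 54.1% were. With the WT libraries of number 2 in their labelled groups 0 of the 80 were called in WT.

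Among the receptor complex and cell death genes, 5 of 12 rose in KO and 0 fell, where 14.4% of all genes rose, and 3 of 12 rose in WT, where 15.5% did. Mlkl, the executioner of necroptosis, rose from 1.50 ± 0.882 to 5.99 ± 0.829 CPM in KO (SD, n = 8 and 8), a log2 change of 2.03 ± 0.37 (adjusted p = 0.000127). Its WT difference was 1.04 ± 0.41 (adjusted p = 0.0546), and it passed in WT without the libraries of high mitochondrial share (adjusted p = 0.0270). Birc3, a ubiquitin ligase that TRAF2 recruits, rose by 1.23 ± 0.15 in KO and by 1.43 ± 0.17 in WT (adjusted p = 4.64e-07 and 5.71e-07). The kinases Ripk3 and Ripk1, which pass the signal to cell death or to NF-kappaB, rose by 0.90 ± 0.13 and 0.48 ± 0.09 in KO and by 1.14 ± 0.16 and 0.50 ± 0.11 in WT. Among 13 kinases between the receptors and NF-kappaB or MAP kinases, 1 rose and 1 fell in KO, against 28.5% of all genes called. The riser was Map3k8, which links NF-kappaB1 to ERK, from 23.6 ± 3.38 to 94.3 ± 13.1 CPM in KO, or 2.04 ± 0.11 (adjusted p = 8.54e-13), and by 2.04 ± 0.13 in WT (adjusted p = 2.35e-11). Tab2, a ubiquitin-binding adaptor of the TAK1 kinase, fell by 0.38 on the log2 scale in KO (SE 0.14, adjusted p = 0.0472). Its WT difference was -0.53 ± 0.16 (adjusted p = 0.0159).

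Among 14 other ubiquitin editors and brakes, 5 rose and 1 fell in KO, against 28.5% of all genes called. Ikbke, a kinase related to TBK1, rose from 4.94 ± 3.95 to 196.7 ± 70.3 CPM in KO, a log2 change of 5.40 ± 0.54 (adjusted p = 1.64e-08), and by 4.43 ± 0.59 in WT (adjusted p = 2.10e-06). Its adaptor Tank rose by 1.07 ± 0.29 in KO and by 1.63 ± 0.34 in WT. Tnip2 and Tbk1 rose by 0.61 ± 0.20 and 0.38 ± 0.10 in KO. Their WT differences of 0.33 ± 0.23 and 0.28 ± 0.12 did not pass (adjusted p = 0.290 and 0.0737). Rnf11, a subunit of the A20 complex, fell by 0.76 in KO (SE 0.18, adjusted p = 0.00223), and its WT difference of -0.24 ± 0.21 did not pass (adjusted p = 0.405). Without the libraries of high mitochondrial share Tnip2, Tbk1 and Rnf11 did pass in WT (adjusted p = 0.000240, 0.00272 and 0.000177). There 54.1% of all genes were called. None of the 5 other TRAF genes passed in KO, and 1 of 4 tested members of a list of other TNF-induced proteins rose. Beyond the rule for naming genes, the called genes of these lists in KO were Cflar, Tnip3 and Tnfaip8l1, which rose, and Tnfsf18 and Tnfrsf25, which fell, named after their values were seen. Rhbdf2, which carries the TNF-cleaving protease ADAM17 to the cell surface, was the riser in KO among 5 genes of TNF release, by 1.66 ± 0.35 (adjusted p = 0.000700). It rose in WT by 1.18 ± 0.40 (adjusted p = 0.0260).

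Of the other TNF superfamily ligands, 3 of 10 rose and 3 fell in KO, where 28.5% of all genes were called in either direction. Tnfsf9, the ligand of the co-stimulatory receptor 4-1BB, rose by 1.78 ± 0.26, and the B cell factors Tnfsf13 and Tnfsf13b rose by 1.42 ± 0.20 and 1.05 ± 0.20. In WT they rose by 1.82 ± 0.30, 1.07 ± 0.23 and 0.93 ± 0.23 (adjusted p = 3.44e-05, 0.000923 and 0.00297). Ltb, which encodes lymphotoxin beta, fell by 1.39 (SE 0.27, adjusted p = 0.000287), and Tnfsf8, the ligand of CD30, fell by 1.06 (SE 0.30). Their WT differences were -1.10 ± 0.31 and -2.12 ± 0.37 (adjusted p = 0.00848 and 7.33e-05). Of 17 other receptors 4 rose and 3 fell, against the same 28.5%. Cd40 rose from 1.20 ± 0.317 to 5.62 ± 3.01 CPM in KO, a log2 change of 2.15 ± 0.31 (adjusted p = 7.03e-06). Relt rose by 1.90 ± 0.28, Tnfrsf12a, the receptor of TWEAK, by 1.13 ± 0.30, and Tnfrsf8, which encodes CD30, by 1.04 ± 0.23. Tnfrsf13b, the B cell receptor TACI, fell by 0.62 (SE 0.15). In WT, Cd40, Relt and Tnfrsf12a rose by 1.79 ± 0.35, 1.62 ± 0.31 and 1.65 ± 0.35, and the difference of Tnfrsf13b was -0.74 ± 0.17. Each of these passed there (adjusted p of 0.000302 to 0.00133). The WT difference of Tnfrsf8 was 0.43 ± 0.26 and did not pass (adjusted p = 0.214). With the WT libraries of number 2 in their labelled groups, Tab2, Tnip2, Tbk1 and Tnfsf8 did not pass in KO (adjusted p of 0.0699 to 0.0938). Tnfrsf17, which encodes the plasma cell receptor BCMA, fell by 4.36 in KO (SE 0.43, adjusted p = 1.60e-08) and by 4.49 in WT (SE 0.52, adjusted p = 2.49e-07). Its level was 19.3 ± 18.8 CPM in KO ns and 0.867 ± 0.484 CPM in KO LPS (SD). The summed level of B cell markers was lower with LPS as well, by a smaller fold. It was 351.7 to 529.1 CPM in KO ns and 123.4 to 221.2 CPM in KO LPS, and 418.2 to 493.2 CPM in WT ns and 85.2 to 169.2 CPM in WT LPS. All 5 B cell markers were detected, and their part in the change of Tnfrsf17 and Ltb was not tested. Marker sums of other cell types did not all fall. With ns and LPS, medians for 6 monocyte markers were 135.4 and 329.7 CPM in KO and 324.2 and 381.3 CPM in WT. For 10 neutrophil markers they were 2478 and 3358 CPM in KO and 4205 and 3628 CPM in WT. The part of these cells in the LPS changes was not tested. Some other marker sums were lower with LPS. Medians with ns and LPS were 350.6 and 140.0 CPM in KO and 381.3 and 121.2 CPM in WT for 5 border macrophage markers, and 37580 and 24493 CPM in KO and 33194 and 20811 CPM in WT for 10 microglial markers.

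Between genotypes, 0 of the 8 genes were called at ns, where edgeR called 0.0932% of all genes, and 0 after LPS, where it called 0.0746%. Of the 80 pathway genes tested, 0 were called in either comparison. At an unadjusted p under 0.05 in edgeR there were 2 of the 8 genes at ns, Tnfaip2 and Traf1, and 2 after LPS, Tnf and Traf1. Of all 16088 genes tested, 1480 were under it at ns and 1019 after LPS. DESeq2 called 1 gene in each comparison, Traf1, and 0.311% and 0.354% of all genes. The interaction of genotype and LPS was called for 0 of the 8 genes, with 0 at an unadjusted p under 0.05 and 0 called by DESeq2, which called 0.0186% of all genes. In it edgeR called 0% of all genes, so the data do not show a different LPS response of any of the 8 in KO, nor do they show equal responses. The interaction of Tnf was -0.62 ± 0.51 (adjusted p = 0.780), and -0.017 ± 0.42 without WT LPS 7 (adjusted p = 1.000). It was 2.08 with the WT libraries of number 2 in their labelled groups (adjusted p = 0.457).

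Traf1 was the gene of this group with the smallest p between genotypes in the LPS experiment. Its level was 1.86 ± 0.616 CPM in KO ns (SD, n = 8) and 3.96 ± 0.815 CPM in WT ns (SD, n = 6), with 1 KO sample, KO ns 8 at 2.88 CPM, reaching the lowest WT sample, WT ns 2 at 2.81 CPM. After LPS it was 4.19 ± 1.39 CPM in KO (SD, n = 8) and 8.92 ± 1.99 CPM in WT (SD, n = 6), and the groups did not overlap. The log2 difference, KO minus WT, was -1.08 ± 0.25 at ns (adjusted p = 0.135) and -1.09 ± 0.24 after LPS (adjusted p = 0.108). Over the 12 other settings the adjusted p ran from 0.00790 to 0.820 at ns and from 0.00304 to 1 after LPS, and the difference stayed negative in each. It passed in both comparisons without the libraries of high mitochondrial share, at -0.89 ± 0.16 (adjusted p = 0.00790) and -0.97 ± 0.15 (adjusted p = 0.00357), where 0.348% and 0.280% of all genes were called. It also passed in both when KO LPS 5 alone was left out (adjusted p = 0.00708 and 0.0404). Within library set 1 the difference was -0.95 ± 0.23 at ns and -0.88 ± 0.22 after LPS, and within set 2 it was -1.22 ± 0.47 and -1.29 ± 0.47, none of which passed.

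Traf1 has an overlapping neighbour. In the annotation of the sex experiment it lies at chr2:34831762-34851784 on the minus strand of GRCm39, and Gm52552 overlaps it on the plus strand with counts equal to 49.3% of those of Traf1. The strand setting of the counting is not stated, so reads of the pair cannot be told apart. Gm52552 has no row in the table of the LPS experiment. In the sex experiment the Traf1 difference had the opposite sign, 0.33 ± 0.20 averaged over the sexes (adjusted p = 0.705). Without male KO 5, at 9.63 CPM the highest male KO animal, this average was 0.10 ± 0.15 and the male difference went from 0.20 to -0.24, none of which passed. The difference between the experiments was not tested.

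Tnf after LPS was 82.1 ± 30.7 CPM in KO (SD, n = 8) and 168.5 ± 158.5 CPM in WT (SD, n = 6), a log2 difference of -0.96 ± 0.36 that did not pass (adjusted p = 0.601). The groups overlapped, and the difference was -0.36 ± 0.31 without the libraries of high mitochondrial share, of which WT LPS 7 is the WT one. Without WT LPS 7 alone it was -0.36 ± 0.29. Tnfaip2 was 30.2 ± 16.8 CPM in KO ns and 62.3 ± 20.4 CPM in WT ns (SD, n = 8 and 6), a difference of -1.10 ± 0.42 (adjusted p = 0.470), with overlapping groups. The neutrophil marker sum of these groups had medians of 2478 and 4205 CPM, and its part in the Tnfaip2 levels was not tested. Tnf at ns and Tnfaip2 after LPS had differences of -0.33 ± 0.36 and -0.73 ± 0.42. The former was -0.021 ± 0.36 without WT ns 8. For the other 5 genes the differences lay between -0.43 and 0.07 in both comparisons, none with an unadjusted p under 0.05.

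**Figure D4:**
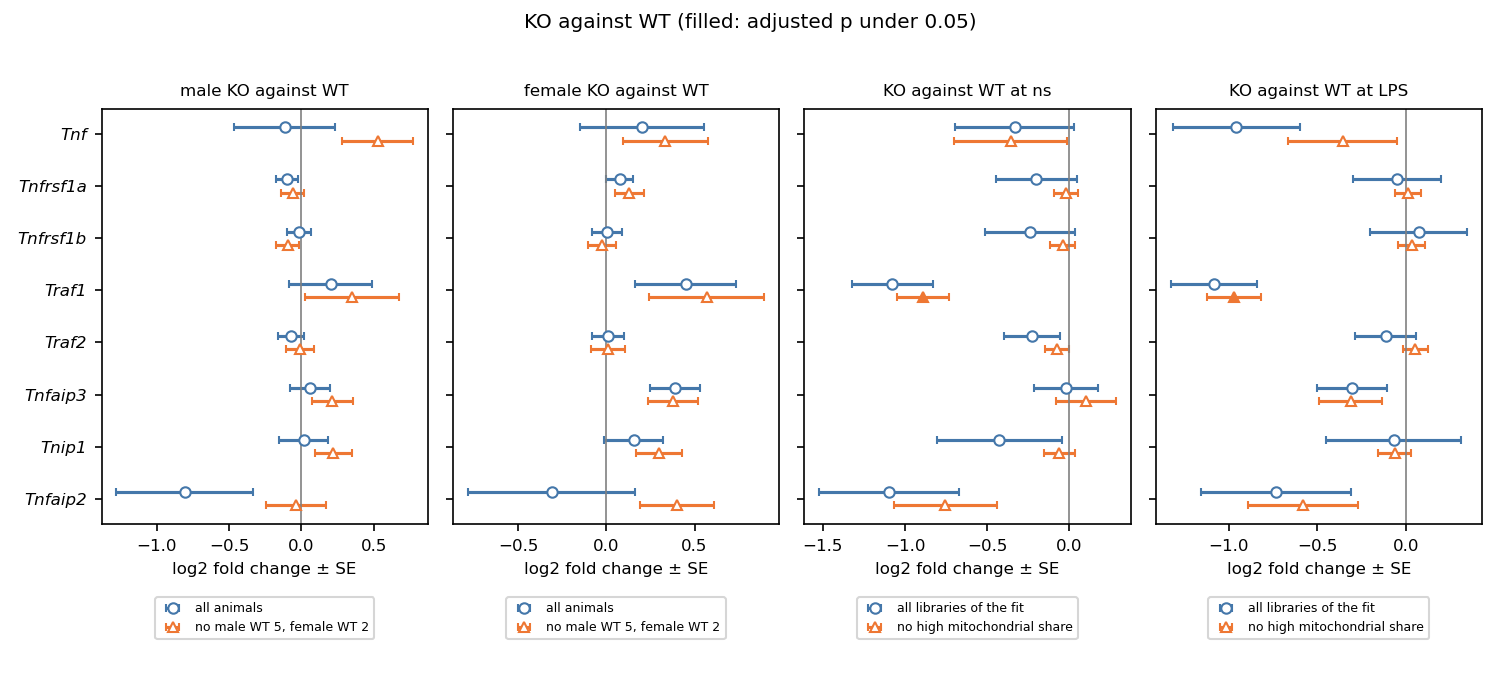
Log2 difference between KO and WT with its SE for each gene, in males and females of the sex experiment and at ns and after LPS, in the fit of all samples and without the libraries or animals named in the key. Filled symbols passed an adjusted p of 0.05. Traf1 lies at -1.08 and -1.09 in the LPS experiment and at 0.20 and 0.45 in males and females.

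In the sex experiment 0 of the 8 genes were called in males, in females, in the average of both or in the interaction of sex and genotype. There edgeR called 0.00946%, 0.164%, 0.432% and 0% of all genes. At an unadjusted p under 0.05 there was 1 of the 8 genes in females and 1 in the average, Tnfaip3 in both cases, and 0 in the other comparisons. Of all 31709 genes tested, 1655 were under it in females and 2860 in the average. DESeq2 called 0 of the 8 in each, and 0.0851%, 0.662%, 1.13% and 0% of all genes. The tested genes of the pathway lists, 90 here, held 0 calls as well. Tnfaip3 was at 111.9, 150.7, 145.9, 162.1 and 198.6 CPM in female KO 1 to 5 and at 108.4, 113.8, 114.3 and 133.5 CPM in female WT 1, 2, 3 and 5. The 4 highest female values were all of KO animals, while female KO 1 lay among the WT animals. The difference was 0.39 ± 0.14 on the log2 scale (unadjusted p = 0.0119, adjusted p = 0.617). In males the levels were 121.3, 106.6, 101.4, 96.5 and 118.5 CPM in KO 1 to 5 and 103.7, 88.2, 90.4 and 135.7 CPM in WT 1, 3, 4 and 5, with overlapping groups and a difference of 0.06 ± 0.14 (adjusted p = 0.996). The interaction for Tnfaip3 was 0.33 ± 0.20 (adjusted p = 0.999).

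Tnf was at 37.3, 26.8, 28.5 and 99.6 CPM in male WT 1, 3, 4 and 5 and at 54.6, 44.9, 51.0, 26.3 and 45.2 CPM in male KO 1 to 5. In females it was at 41.9, 63.5, 55.6 and 41.4 CPM in WT 1, 2, 3 and 5 and at 40.6, 61.2, 61.3, 76.6 and 51.5 CPM in KO 1 to 5. Groups overlapped in both sexes, and male WT 5 was the highest animal of all 18. The log2 difference was -0.12 ± 0.35 in males, with an adjusted p of 0.997, and 0.20 ± 0.35 in females, with an adjusted p of 1. Without male WT 5 and female WT 2, 0 of the 8 genes were called, where edgeR called 0.0125%, 0.602% and 0.969% of all genes in males, females and the average. In that fit the unadjusted p of Tnf, Tnfaip3 and Tnip1 was under 0.05 in the average, with differences of 0.43 ± 0.17, 0.29 ± 0.10 and 0.26 ± 0.09 and adjusted p of 0.528, 0.322 and 0.361. So was that of 2324 of all 31895 genes tested in that fit. The male Tnf difference was then 0.53 ± 0.24 and did not pass (adjusted p = 1).

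Tnfaip2 followed the same 2 animals. It was at 125.1 CPM in male WT 5 and at 84.2 CPM in female WT 2, against 19.4 to 40.0 CPM in the other 16 animals. Its log2 difference was -0.80 ± 0.47 in males, with an adjusted p of 0.765, and -0.31 ± 0.47 in females, with an adjusted p of 1. Without those animals it was -0.04 ± 0.21 and 0.40 ± 0.21. Male WT 5 and female WT 2 also had the highest monocyte marker sums, 3533 and 1975 CPM, against 87.8 to 517.6 CPM in the other animals, and the lowest microglial sums, 22572 and 23106 CPM. All 10 neutrophil markers and all 6 monocyte markers were detected, and their part in the Tnf and Tnfaip2 levels was not tested.

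The receptors varied little across the animals. Tnfrsf1a ran from 163.2 to 220.8 CPM and Tnfrsf1b from 351.3 to 467.3 CPM over all 18 animals, with log2 differences between genotypes of -0.10 ± 0.08 and -0.02 ± 0.08 in males and 0.07 ± 0.08 and 0.00 ± 0.08 in females. Traf2 ran from 25.1 to 34.9 CPM, with differences of -0.07 ± 0.09 in males and 0.01 ± 0.09 in females. Tnip1 ran from 22.98 to 40.1 CPM, and its highest animal was again male WT 5. Traf1 was at 3.39 to 3.72 CPM in 4 male KO animals and at 9.63 CPM in male KO 5, where female KO animals had 4.51 to 8.99 CPM. Differences for these 5 genes had adjusted p-values of 0.872 or more in males.

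**Figure D5:**
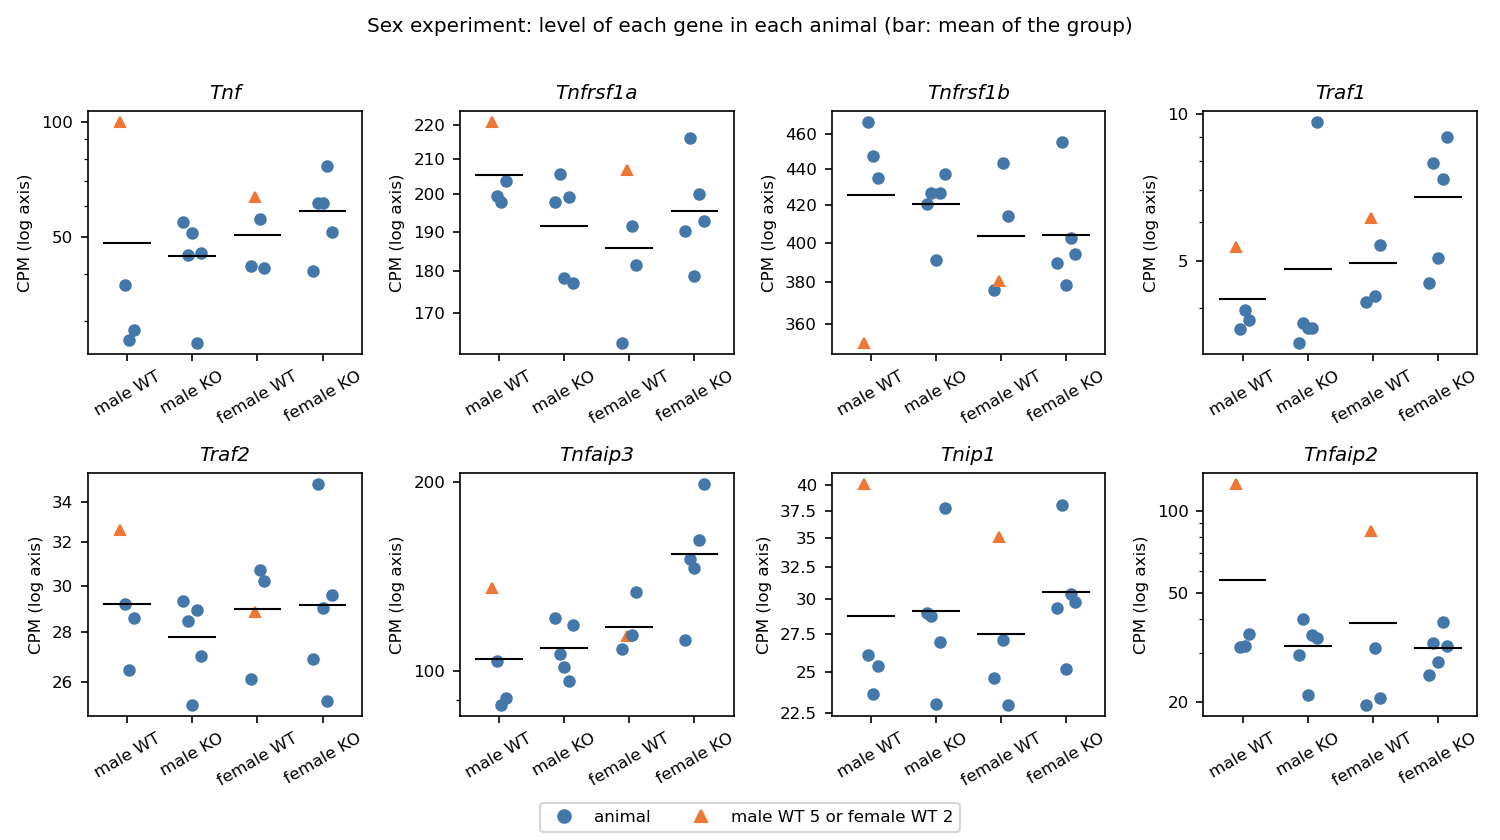
Level of each gene in CPM (log axis, ranges differ between panels) in each animal of the sex experiment, by sex and genotype, with a bar at the mean of the group. Triangles mark male WT 5 and female WT 2. In the Tnfaip2 panel they lie at 125.1 and 84.2 CPM, above the 40.0 CPM of the next animal.

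Across the experiments, Tnf was at 26.3 to 99.6 CPM in the animals of the sex experiment and at 2.67 to 13.1 CPM in the ns samples of the LPS fit. The summed level of 21 immediate early and dissociation response genes moved the same way, 4768 to 10860 CPM against 494.8 to 1211 CPM. Tnfaip3 was at 88.2 to 198.6 CPM against 36.3 to 95.6 CPM. The tables were counted and normalized separately, so these levels stand side by side only, and what sets them apart was not tested.

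The genes whose log2 level was most like that of Tnf differed between the experiments. Over the 18 animals of the sex experiment they were Gm34086, Gm52399, Mir142, Nfkbid and Plk3, with Pearson r of 0.90 to 0.93 among 12395 genes with a mean of at least 5 CPM. Over the 28 samples of the LPS experiment they included Ahcy, Msr1, Gpr84 and Saa3, each with r of 0.98, among 10401 genes. Samples of the latter share the LPS contrast, and libraries are shared by all genes, so these are descriptions.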

How the data were processed

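Read counts per gene were deposited as 2 tables of whole numbers, 1 for the sex experiment and 1 for the LPS experiment, counted by the authors and not normalized. STAR 2.6.1, featureCounts of Subread, FastQC, DESeq2 and build GRCm39 are named in the submitters' processing notes, with no roles. The strand setting is not given in the sources used here. The labels name 57 libraries, and 6 repeat libraries have no column and are not analysed here.

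Genes passing filterByExpr were scaled by trimmed mean of M-values factors and tested in edgeR 4.0.16 (R 4.3.3) by quasi-likelihood F tests with robust dispersion, on all genes of each table, with Benjamini-Hochberg adjustment over all genes tested. A gene was called at an adjusted p under 0.05, and the SE was the log2 fold change over the square root of F. The fit of the sex experiment held 18 animals in 4 groups. That of the LPS experiment held 28 samples with library set as a covariate, WT LPS 8 and WT LPS 9 summed (chi-square per degree of freedom 1.86, against 8.32 for the next closest pair of a group), and the 4 WT libraries of number 2 only shown. Levels are scaled CPM. Biological coefficients of variation were 35.3% and 40.1%.

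The members and gene lists were chosen with earlier results of these data known. From each pathway list, up to 4 genes per direction with the largest fold in KO, called and at a mean of at least 1 CPM, were named. The 5 genes most like Tnf had a mean of at least 5 CPM, and 1 of them in the LPS experiment is not reported here. A mitochondrial share above 2% was called high. Promoters were searched on both strands for the NF-kappaB consensus, counting overlapping matches.

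Alternatives were DESeq2 1.42.0, RLE scaling, no filter, only the groups compared, a replicate block, no set covariate, each set by itself, the number 2 libraries in their labelled groups or left out, the summed pair kept apart, and each sample left out. Leaving out the libraries of high mitochondrial share, and male WT 5 with female WT 2, were chosen after seeing the data. The fits were also run on simulated counts with the same spread for every gene, no effect of library set and no libraries of high mitochondrial share. The outcome is not reported here, and those features of the data were not simulated.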

Additional observations from a re-analysis of the deposited data

Results flagged for a closer look

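In groups of 4 to 10 samples, a level was singled out where its gap to the nearest other sample was large against the range of the group (Dixon's criterion). Chance flags about 1 in 20 groups, and 14 of the 64 groups examined had such a level.

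Male WT 5 stood above the other male WT animals in Tnf (99.6 CPM, next 37.3), Tnfaip2 (125.1 CPM, next 35.3) and Tnip1 (40.1 CPM, next 26.1). Male KO 5 had 9.63 CPM of Traf1, where the next animal had 3.72. Tnf was high in WT ns 8 (13.1 CPM, next 6.25) and in WT LPS 7 (486.2 CPM, next 144.4).

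The low levels were all in 3 libraries of high mitochondrial share. WT LPS 7 was low in Tnfrsf1a (156.1 CPM, next 272.4), Tnfrsf1b (142.9 CPM, next 515.1) and Tnip1 (21.4 CPM, next 58.7). KO LPS 5 was low in Tnfrsf1a (39.0 CPM, next 257.6), Tnfrsf1b (98.8 CPM, next 471.3), Traf2 (14.0 CPM, next 38.2) and Tnip1 (4.65 CPM, next 54.9). KO ns 6 was low in Tnfaip3 (36.3 CPM, next 71.9). The cause of these levels was not tested.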

How the results depend on the processing

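Of the 8 genes, 8 were called for LPS in KO within library set 1 and without the libraries of high mitochondrial share, and 2 within set 2, against 5 in all. In WT 0 were called with the number 2 libraries as labelled and 2 within set 2. Traf1 was the 1 gene called between genotypes at ns by DESeq2, without the number 2 libraries, without those of high mitochondrial share and without KO LPS 5. It was called after LPS by DESeq2, with the replicate block, with WT LPS 8 and 9 apart, without the libraries of high mitochondrial share and without KO LPS 5. Of all genes, 13 of 15816 were called at ns without the number 2 libraries, and 16 of 16133 after LPS with WT LPS 8 and 9 apart. Leaving out 1 sample at a time gave 0 to 1 of the 8 genes in both. It gave 11 to 18 of all genes at ns and 9 to 19 after LPS. The cause of these changes was not tested. Other changes of sign were in differences that did not pass.

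Without male WT 5 and female WT 2 the log2 difference between genotypes was 0.53 for Tnf in males, -0.024 for Tnfrsf1b and 0.40 for Tnfaip2 in females, 0.034 for Tnfrsf1a and 0.18 for Tnfaip2 in the average, and -0.19 for the interaction of Tnf. With no filter it was 0.0013 for Tnfrsf1a and 0.0050 for Tnfrsf1b in the average, and 0.037 for the interaction of Traf1 and LPS. Within set 1, LPS against ns in WT gave 0.048 for Tnfrsf1b and -0.024 for Traf2, the genotypes differed by 0.087 for Tnfaip3 at ns, and by 0.047 for Tnfrsf1a and 0.093 for Traf2 after LPS, and the interaction of Traf1 was 0.070. Without the libraries of high mitochondrial share these were 0.12 for Tnfrsf1b in WT, 0.10 for Tnfaip3 at ns, 0.011 for Tnfrsf1a and 0.053 for Traf2 after LPS, and -0.0025 for the interaction of Tnip1. With the number 2 libraries as labelled the genotypes differed after LPS by 0.11 for Tnfrsf1a, 0.036 for Tnfaip3 and 0.22 for Tnip1, and interactions were 2.08 for Tnf, 0.98 for Tnfaip3 and 0.30 for Traf1. Without them in any group the values after LPS were 0.11 for Tnfrsf1a, 0.0051 for Traf2 and 0.085 for Tnip1, and 0.15 for the interaction of Traf1. With WT LPS 8 and 9 apart, Tnfrsf1b in WT was 0.0045.

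Same-numbered samples did not deviate together in every pair (mean r 0.200 over 24 pairs, from -0.580 to 0.777, in the sex experiment, and 0.0730 over 35 pairs, from -0.642 to 0.907, in the LPS experiment), and 7 of 18 and 10 of 27 samples correlated best with their own number. Pairs of different number had a mean r of -0.0366 over 97 pairs in the sex experiment and of -0.00614 over 111 pairs in the LPS experiment. Whether the numbers mark a pairing cannot be told from these values and was not tested. With the replicate block, 5 of the 8 genes were called for LPS in KO, 4 in WT, 0 between genotypes at ns, 1 after LPS and 0 in the sex experiment. Of all 16088 genes tested it called 5574, 5758, 16 and 33 in the first 4 of these comparisons. In the sex experiment it called 5 of 31709 genes in males, 85 in females, 181 in the average and 0 in the interaction. The block turned Tnip1 to -0.031 in males, Tnfrsf1b to -0.0033 in females, and Tnfrsf1a to 0.042 and Tnip1 to 0.11 after LPS.

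With 1 sample left out, differences between genotypes crossed 0 as follows. In males they ran from -0.31 to 0.52 for Tnf, -0.015 to 0.21 for Tnfaip3, -0.097 to 0.032 for Tnfrsf1b, -0.12 to 0.22 for Tnip1 and -0.24 to 0.35 for Traf1. In females they ran from -0.54 to 0.40 for Tnfaip2, -0.044 to 0.051 for Tnfrsf1b and -0.064 to 0.056 for Traf2. Averages ran from -0.056 to 0.36 for Tnf, -0.042 to 0.015 for Tnfrsf1a and -0.048 to 0.017 for Tnfrsf1b. Interactions with sex ran from -0.32 to 0.52 for Tnf, -0.27 to 1.20 for Tnfaip2, -0.030 to 0.099 for Tnfrsf1b and -0.064 to 0.28 for Tnip1. At ns Tnfaip3 ran from -0.090 to 0.067. After LPS they ran from -0.14 to 0.11 for Tnfrsf1a, -0.10 to 0.22 for Tnfrsf1b, -0.22 to 0.10 for Tnip1 and -0.17 to 0.0042 for Traf2, with 0.018 for Tnfrsf1a and 0.051 for Tnip1 when the summed WT LPS 8 and 9 were left out. The interaction of Traf1 with LPS ran from -0.090 to 0.13, and Tnfrsf1b for LPS in WT from -0.20 to 0.12.

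Calls over all genes moved by more than 1.5 times as follows. Males had 3, and 27 by DESeq2 and 5 with the block. Females had 52, and 210 by DESeq2, 96 with no filter, 3 with only the groups compared, 85 with the block, 192 without the 2 animals, and from 5 (without female WT 1) to 132 (without male WT 5). The average had 137, and 358 by DESeq2, 309 without the 2 animals, and from 54 (without male WT 4) to 279 (without male WT 5). LPS in KO had 4587, and 7219 and 721 in sets 1 and 2 and 8783 without the libraries of high mitochondrial share. LPS in WT had 4934, and 0 with the number 2 libraries as labelled, 547 in set 2 and 8696 without the libraries of high mitochondrial share. At ns there were 15, and 50 by DESeq2, 1 in set 2 and 56 without those libraries. After LPS there were 12, and 57 by DESeq2, 3 with only the groups compared, 33 with the block, 20 as labelled, 35 and 0 in sets 1 and 2, 45 without those libraries and up to 19 without WT LPS 5. The interaction with LPS had 0, and 708 at an unadjusted p under 0.05, 3 by DESeq2 and 1 without those libraries.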
